A study of Mus musculus with 8 samples.

Results

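The glucocorticoid receptor and genes that respond to it were followed in the ascending aorta of mice with too little fibrillin-1. The 9 members, chosen with earlier results of these data known, are the receptor gene Nr3c1, the enzyme gene Hsd11b1 and the 7 targets Fkbp5, Tsc22d3, Zbtb16, Sgk1, Klf9, Errfi1 and Pdk4. They were found by taking, for each name, the brightest transcript cluster (the array's unit of measurement) that carried that gene symbol alone. Each of the 9 had exactly 1 such cluster, out of 30142 genes with a cluster of 1 symbol, and all 9 passed the filter on dim signals described below.

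RNA from ascending aorta, snap-frozen, was measured on 8 whole-transcriptome arrays from male mice aged 10 weeks on a C57BL/6J background. The 4 Fbn1mgR/mgR arrays are called mgR611, mgR612, mgR613 and mgR614, the 4 wild-type arrays WT675, WT676, WT742 and WT744, and both genotypes were bred from heterozygous parents. The mgR allele is a germline hypomorph of Fbn1, the fibrillin-1 gene, and is used as a model of severe Marfan syndrome. The labels do not say that each sample came from a separate animal, so the p-values rest on a spread among samples that may be technical. The time of day of collection is not given in the sources used here.

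Glucocorticoids enter cells and bind a receptor held in the cytoplasm by chaperones, and the loaded receptor moves to the nucleus and binds palindromic response elements in DNA. Hsd11b1 encodes the enzyme that regenerates active glucocorticoid from its inert 11-keto form inside cells, so local exposure depends on it as well as on the circulating hormone. Among the classical induced genes, Fkbp5 encodes a co-chaperone that lowers the receptor's affinity for hormone, and Tsc22d3 encodes GILZ, which mediates anti-inflammatory effects. In blood vessels the receptor is present in smooth muscle, endothelium and infiltrating leukocytes, and many of its targets also respond to other signals.

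The response element is visible in the promoter of one member. RefSeq promoter windows (GRCm38.p6, 250 bases before to 50 after an annotated start) were available for 7 members, 15 windows in all. Of these, 1 of the 6 windows of Sgk1, which encodes a kinase that regulates ion transport, held a full palindromic response element, the half-site AGAACA and its reverse complement TGTTCT separated by any 3 bases. That palindrome was found in 0.00913% of 32851 windows of all genes, and a looser form, GNACA and TGTNC at the same spacing, which also takes in the full palindrome, in 0.475%. The half-site AGAACA, read on either strand, was found in 19.0% of all windows. It was in 3 of the 6 Sgk1 windows and 1 of the 3 Tsc22d3 windows, and in no window of the other 5 members. The Sgk1 window with the palindrome lies at chr10:21993640-21993939 on the plus strand, the Tsc22d3 window with a half-site at chrX:140600473-140600772 on the minus strand, and the Klf9 window, shown as one without a match, at chr19:23140976-23141275 on the plus strand. Capitals mark the palindrome and the half-sites. A match describes letters in a window and does not show binding, and elements can lie far from a start.
Sgk1: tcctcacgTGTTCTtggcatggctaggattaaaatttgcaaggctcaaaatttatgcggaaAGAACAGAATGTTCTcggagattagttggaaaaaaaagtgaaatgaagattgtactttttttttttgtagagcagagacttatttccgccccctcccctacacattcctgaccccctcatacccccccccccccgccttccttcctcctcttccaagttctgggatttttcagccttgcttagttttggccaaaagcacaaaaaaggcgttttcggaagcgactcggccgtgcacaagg
Tsc22d3: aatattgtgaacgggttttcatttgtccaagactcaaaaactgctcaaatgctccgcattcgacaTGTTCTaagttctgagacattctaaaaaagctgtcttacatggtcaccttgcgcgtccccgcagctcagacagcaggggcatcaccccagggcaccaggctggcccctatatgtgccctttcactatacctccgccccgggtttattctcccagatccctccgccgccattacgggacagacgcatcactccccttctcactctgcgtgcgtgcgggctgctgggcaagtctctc
Klf9: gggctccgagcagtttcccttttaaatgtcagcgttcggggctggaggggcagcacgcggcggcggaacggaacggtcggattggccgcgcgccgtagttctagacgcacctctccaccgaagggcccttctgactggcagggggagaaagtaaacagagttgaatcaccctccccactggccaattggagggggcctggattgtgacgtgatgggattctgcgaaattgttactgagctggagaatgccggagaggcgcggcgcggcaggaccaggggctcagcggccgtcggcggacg

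Signals are the deposited log2 values, so a difference of 1 is a doubling of the signal, and signals of different genes are not compared as levels. Array medians were 3.95 to 4.07 and the highest value was 19.93. Differences were tested with limma over the 32957 clusters whose mean signal exceeded the median of all clusters, 4.01. The p-values were adjusted by Benjamini-Hochberg over all of these, and a gene was called at an adjusted p under 0.05. The 10 smooth muscle markers had mean signals of 11.7 to 12.7 in Fbn1mgR/mgR and 12.4 to 13.2 in wild-type arrays, so markers of the labelled tissue were bright on every array. Brown fat markers stood apart on 1 array of each genotype, mgR614 and WT676, called brown-fat-rich here. In whole tissue, fewer cells of a type and less RNA per cell cannot be told apart.

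None of the 9 members passed the threshold, where 1.86% of all tested clusters did (460 higher and 153 lower). Before adjustment, p was under 0.05 for 3 members, namely Hsd11b1, higher in the mutant, and Klf9 and Nr3c1, lower in it, where 14.3% of all clusters had such a p. The difference, Fbn1mgR/mgR minus wild-type, was below 0 for 8 of the 9 and for all 7 targets, with a median of -0.43. Over all tested clusters 53.9% were below 0 and the median was -0.018. A median below 0 was not particular to the members. It was -0.46 for smooth muscle markers (8 of 10 tested below 0) and -0.46 for endothelial markers (7 of 10). For adipocyte markers it was -0.39 (10 of 12). Medians were -0.215 for striated muscle, -0.19 for fibroblast, -0.086 for brown fat and -0.045 for T cell markers. The macrophage median was 1.94. The members share arrays, so their common direction is not a set of independent results.

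**Figure D1:**
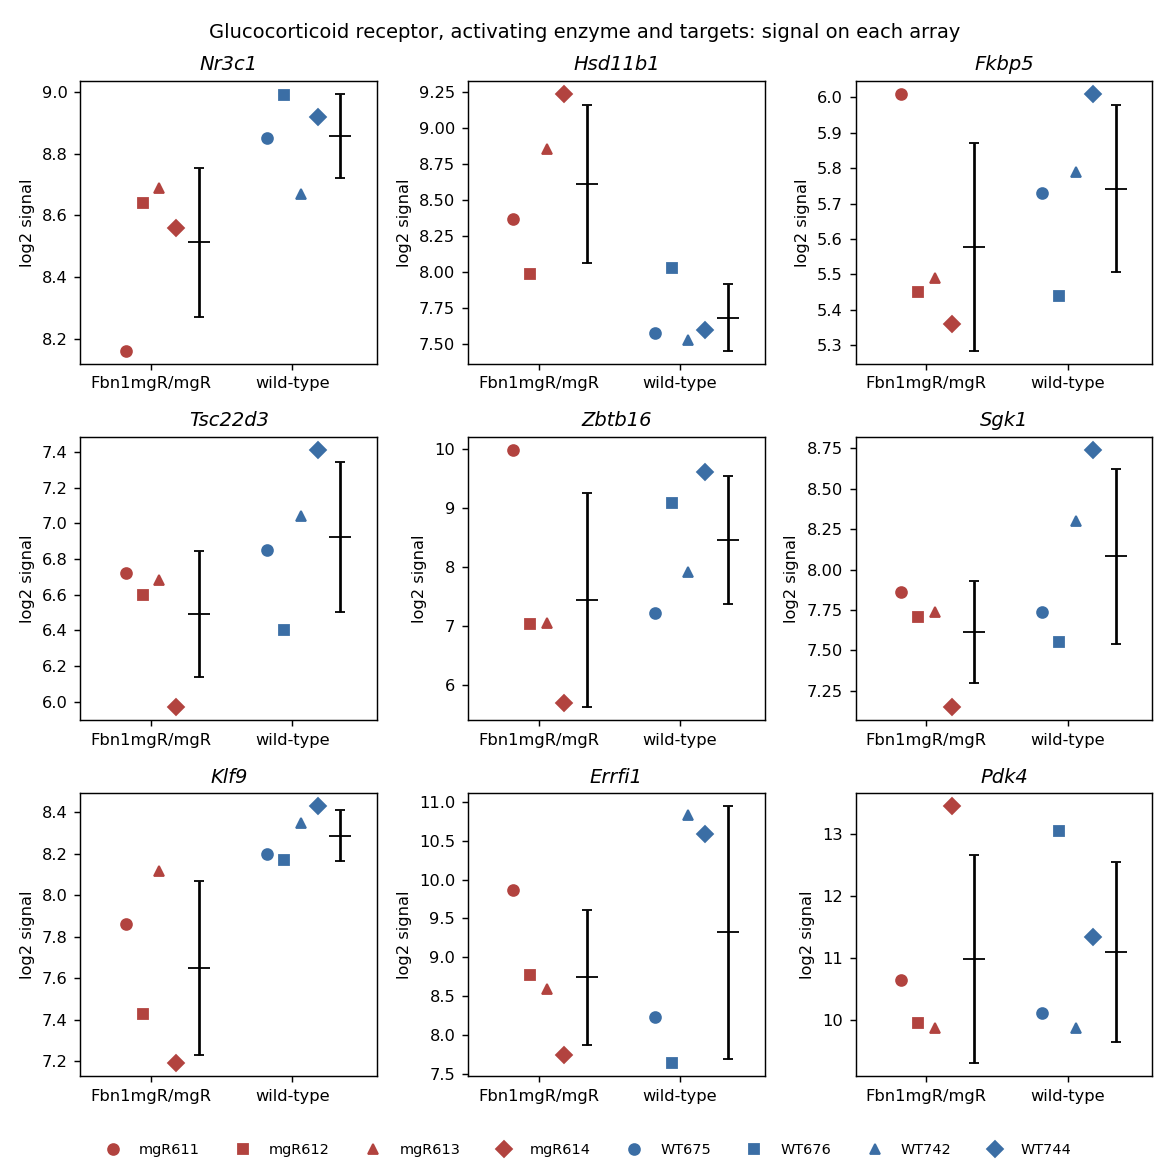
Log2 signal of the 9 genes on each of the 8 arrays, with Fbn1mgR/mgR on the left and wild-type on the right of each panel; each symbol is 1 array and the bars are the mean ± SD (n = 4 each), on axes that do not start at 0. The genotypes overlap in every panel except that of Klf9.

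Nr3c1, the receptor gene, had signals of 8.16, 8.64, 8.69 and 8.56 in Fbn1mgR/mgR arrays and 8.85, 8.99, 8.67 and 8.92 in wild-type arrays. The mutant signals were mostly lower, with mgR611 the lowest, but mgR613 and WT742 overlapped. The means were 8.51 ± 0.241 in Fbn1mgR/mgR and 8.86 ± 0.137 in wild-type (SD, n = 4 each), a difference of -0.345 (SE 0.150, 95% interval -0.69 to -0.0043, limma adjusted p = 0.343). Without mgR611 the difference was -0.23. Over 20 alternative settings it stayed between -0.41 and -0.23.

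Hsd11b1, the activating enzyme, was the single member with a higher mean in the mutant aorta. Its signals were 8.37, 7.99, 8.86 and 9.24 in Fbn1mgR/mgR arrays and 7.58, 8.03, 7.53 and 7.60 in wild-type arrays. All mutant arrays except mgR612 lay above every wild-type array, and mgR612 lay just under WT676. The difference was 0.93 (SE 0.264, 95% interval 0.33 to 1.53, limma adjusted p = 0.144), or 1.91-fold (95% interval 1.26 to 2.89). It ranged from 0.72 to 1.14 over 20 alternatives, with adjusted p from 0.0655 to 0.296. The arrays highest in brown fat markers, mgR614 and WT676, were also the highest of their genotypes for Hsd11b1. Without both the difference was 0.84 (limma adjusted p = 0.236). When all 8 arrays were kept and the fit was adjusted for each array's average brown fat marker signal, it was 0.963 (limma adjusted p = 0.0655). These fits moved the Hsd11b1 difference in opposite directions from 0.93. The brown fat mean averaged 7.15 in Fbn1mgR/mgR and 7.28 in wild-type arrays. That covariate could therefore move a genotype difference only a little, whatever its part in the Hsd11b1 signal. Macrophage markers, of which 16 of 18 rose (1.40% of all clusters did), had a log2 summed signal of 15.6 to 16.7 in Fbn1mgR/mgR and 13.6 to 14.3 in wild-type arrays. No macrophage marker was in the range of dim signals, and their part in the Hsd11b1 difference was not tested.

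**Figure D2:**
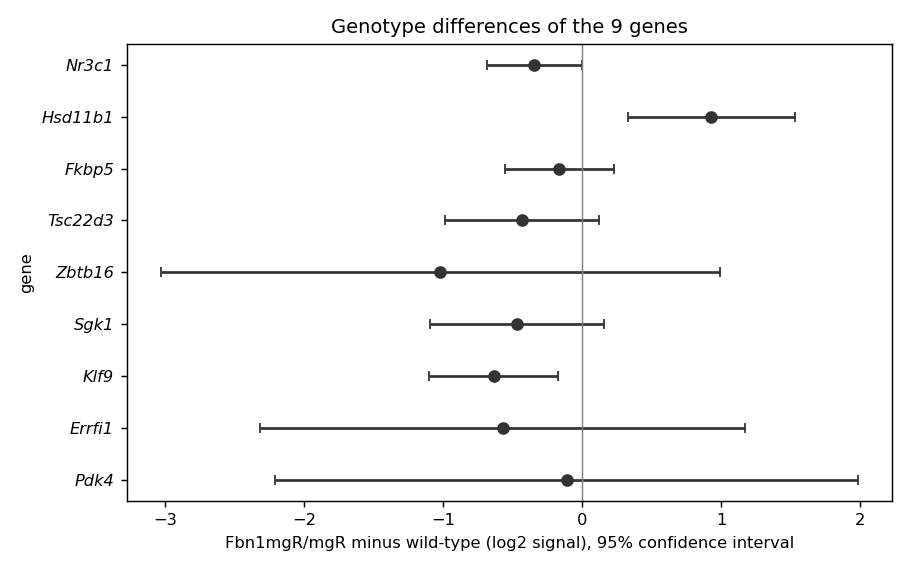
Difference in log2 signal, Fbn1mgR/mgR minus wild-type, of each of the 9 genes (points) with its 95% interval from limma (bars; n = 4 each). The intervals of Nr3c1, Hsd11b1 and Klf9 leave out 0 before adjustment, and those of Zbtb16, Errfi1 and Pdk4 are the widest of the 9.

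Klf9, a Krüppel-like transcription factor gene induced by glucocorticoids, was the one target whose genotypes did not overlap. Its signals were 7.86, 7.43, 8.12 and 7.19 in Fbn1mgR/mgR arrays and 8.20, 8.17, 8.35 and 8.43 in wild-type arrays. Every mutant array lay below every wild-type array, with mgR613 just under WT676, and 1 of the 9 members had such a separation. Of all tested clusters 8.92% had one in either direction, 3.65% with the mutant lower and 5.26% with it higher. The means were 7.65 ± 0.418 in Fbn1mgR/mgR and 8.29 ± 0.123 in wild-type (SD, n = 4 each), a difference of -0.64 (SE 0.204, 95% interval -1.10 to -0.17, limma adjusted p = 0.194). Alternatives gave -0.79 to -0.48 with adjusted p from 0.107 to 0.399. Klf9 is also known to follow the circadian clock.

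Fkbp5 and Tsc22d3, the pair most often read as indicators of receptor activity, did not differ beyond their spread. Fkbp5 had signals of 6.01, 5.45, 5.49 and 5.36 in Fbn1mgR/mgR arrays and 5.73, 5.44, 5.79 and 6.01 in wild-type arrays. The highest value of each genotype was the same, on mgR611 and WT744, and the difference was -0.165 (95% interval -0.56 to 0.23, limma adjusted p = 0.754). Tsc22d3 had signals of 6.72, 6.60, 6.68 and 5.97 in Fbn1mgR/mgR arrays and 6.85, 6.40, 7.04 and 7.41 in wild-type arrays. The genotypes overlapped, with mgR614 far below the other mutant arrays. The difference was -0.43 (95% interval -0.98 to 0.12, limma adjusted p = 0.487) and -0.26 without mgR614.

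Sgk1, whose promoter holds the palindrome shown above, had signals of 7.86, 7.71, 7.74 and 7.15 in Fbn1mgR/mgR arrays and 7.74, 7.55, 8.30 and 8.74 in wild-type arrays. WT742 and WT744 were above all others and mgR614 below, while the remaining arrays overlapped. The difference was -0.47 (95% interval -1.10 to 0.16, limma adjusted p = 0.513), and -0.25 without WT744.

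The remaining 3 targets varied so widely within a genotype that their intervals allow large differences either way. Their pooled standard deviations all lay above the 95th percentile of all tested clusters. Zbtb16, which encodes the transcription factor PLZF, had signals of 9.99, 7.03, 7.05 and 5.68 in Fbn1mgR/mgR arrays and 7.22, 9.09, 7.91 and 9.61 in wild-type arrays. The mutant arrays held both the highest and the lowest value, a range of 4.31 against 2.39 in wild-type. The difference was -1.02 (95% interval -3.03 to 0.99, limma adjusted p = 0.689). Without both brown-fat-rich arrays it was -0.22 (limma adjusted p = 0.961), the smallest over 20 alternatives. It was -1.87 without mgR611, the largest, and -0.43 without mgR614, and no fit called it.

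Errfi1, which encodes a feedback inhibitor of the EGF receptor, had signals of 9.86, 8.78, 8.60 and 7.75 in Fbn1mgR/mgR arrays and 8.23, 7.64, 10.83 and 10.58 in wild-type arrays. WT742 and WT744 were the highest and WT676 the lowest, so the mutant arrays lay inside the wild-type range. The difference was -0.57 (95% interval -2.32 to 1.17, limma adjusted p = 0.819). It was -0.069 without WT742, -0.15 without WT744 and -1.13 without WT676.

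Pdk4, which encodes a kinase that restrains pyruvate oxidation, had signals of 10.65, 9.96, 9.88 and 13.44 in Fbn1mgR/mgR arrays and 10.12, 13.04, 9.88 and 11.34 in wild-type arrays. The highest were mgR614 and WT676, 1 of each genotype. The mean of 13 brown fat markers was 6.52, 6.60, 6.57 and 8.90 in Fbn1mgR/mgR and 6.72, 9.13, 6.00 and 7.28 in wild-type arrays, highest on those same arrays. Their log2 summed signal was 11.6 to 16.6 in Fbn1mgR/mgR and 10.4 to 16.8 in wild-type arrays, and 1 of the 13 was in the range of dim signals. None of the 12 tested brown fat markers was called in either direction by limma, and 0 had an unadjusted p under 0.05. The Pdk4 difference was -0.11 (95% interval -2.21 to 1.98, limma adjusted p = 0.979). Its sign was not settled: it was -0.28 without both arrays, 0.54 without WT676 alone and -0.93 without mgR614 alone. The part of brown fat in the Pdk4 signal was not tested.

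**Figure D3:**
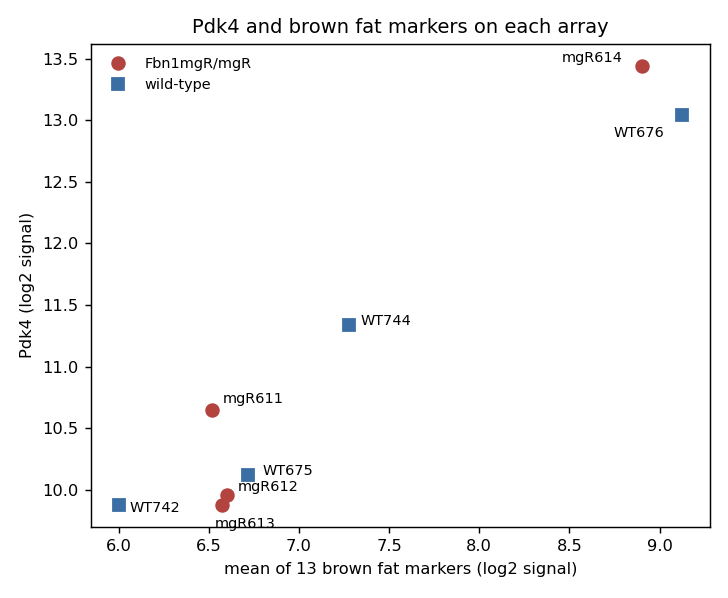
Log2 signal of Pdk4 (vertical axis) against the mean log2 signal of 13 brown fat markers (horizontal axis) on the 4 Fbn1mgR/mgR arrays (circles) and the 4 wild-type arrays (squares). Both measures are highest on mgR614 and WT676.

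Within a genotype, several targets moved together from array to array. The array mgR614 was the lowest of its genotype for 6 of the 7 targets and mgR611 the highest for 5. Among wild-type arrays WT744 was the highest for 5 of the 7 and WT676 the lowest for 5. The low arrays mgR614 and WT676 are also the brown-fat-rich ones. Low signals on mgR614 were not particular to the targets. Among mutant arrays it also had the lowest means of smooth muscle (11.7), striated muscle (5.34), fibroblast (13.4) and clock genes (6.57). It had the highest means of brown fat (8.90), adipocyte (9.17) and the inflammatory genes read below (6.48). The share of all clusters lowest on mgR614 was not counted. After each genotype's mean was subtracted, Tsc22d3 and Sgk1 correlated with r = 0.951 and rho = 0.976 over the 8 arrays (exact permutation p = 0.00174 and 0.00347; adjusted p = 0.0391 and 0.0521 over 45 relations). The first is the smallest p that the 576 rearrangements of arrays within genotypes can give. Without mgR614 and WT676, the arrays farthest from the median, r was 0.963. Among pairs of members only this 1 had an adjusted p under 0.05, and for r alone. For Sgk1 and Errfi1 r was 0.909 (exact permutation p = 0.0295, adjusted p = 0.148). Pdk4 had a negative r with every other target.

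Some of these arrays also stood out for immediate early genes, which respond within minutes to stimulation. The mean of 11 such genes was 6.65, 6.62, 6.87 and 5.93 in Fbn1mgR/mgR and 5.87, 5.73, 6.98 and 7.60 in wild-type arrays, lowest within each genotype on mgR614 and WT676 and highest on mgR613 and WT744. These are the arrays that the count over targets gave as lowest, and WT744 as highest, but mgR611 was not the highest here. Their log2 summed signal was 10.2 to 11.7 in Fbn1mgR/mgR and 10.2 to 14.3 in wild-type arrays, and 2 of the 11 were in the range of dim signals. Sgk1 followed this mean with r = 0.975 and rho = 0.905 (exact permutation p = 0.00694 and 0.0208, adjusted p = 0.0651 and 0.104), and r was 0.965 without mgR614 and WT676. Tsc22d3 did so with r = 0.895 and rho = 0.881 (exact permutation p = 0.00521 and 0.00694, adjusted p = 0.0651 and 0.0625), and r was 0.916 without the same arrays. For Klf9, r was 0.599 and rho 0.619 (exact permutation p = 0.00174 and 0.00347, adjusted p = 0.0391 and 0.0521), and 0.582 without mgR613 and mgR614. Errfi1 had r = 0.877 and rho = 0.905 (exact permutation p = 0.0625 and 0.118, adjusted p = 0.216 and 0.335), and r was 0.854 without WT676 and WT742. Of the other 3 targets, Fkbp5 had a higher r and rho than Klf9 but larger p, and Zbtb16 followed the mean less closely. For Fkbp5 r was 0.627 and rho 0.690 (exact permutation p = 0.0833 and 0.0451, adjusted p = 0.230 and 0.169), and r was 0.613 without mgR611 and WT744. For Zbtb16 r was 0.395 and rho 0.333 (exact permutation p = 0.266 and 0.392, adjusted p = 0.386 and 0.542), and r was 0.087 without the same arrays. Pdk4 ran the other way, with r = -0.483 and rho = -0.452 (exact permutation p = 0.247 and 0.326, adjusted p = 0.370 and 0.506), and r was 0.547 without mgR614 and WT676. A fit with the immediate early mean as a covariate, added after the data were seen, gave -0.42 for Tsc22d3, -0.45 for Sgk1 and -0.63 for Klf9. None of these was called (limma adjusted p = 0.226, 0.122 and 0.168). The immediate early mean averaged 6.52 in Fbn1mgR/mgR and 6.55 in wild-type arrays. This covariate could therefore hardly move a genotype difference, whatever its part in the targets.

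**Figure D4:**
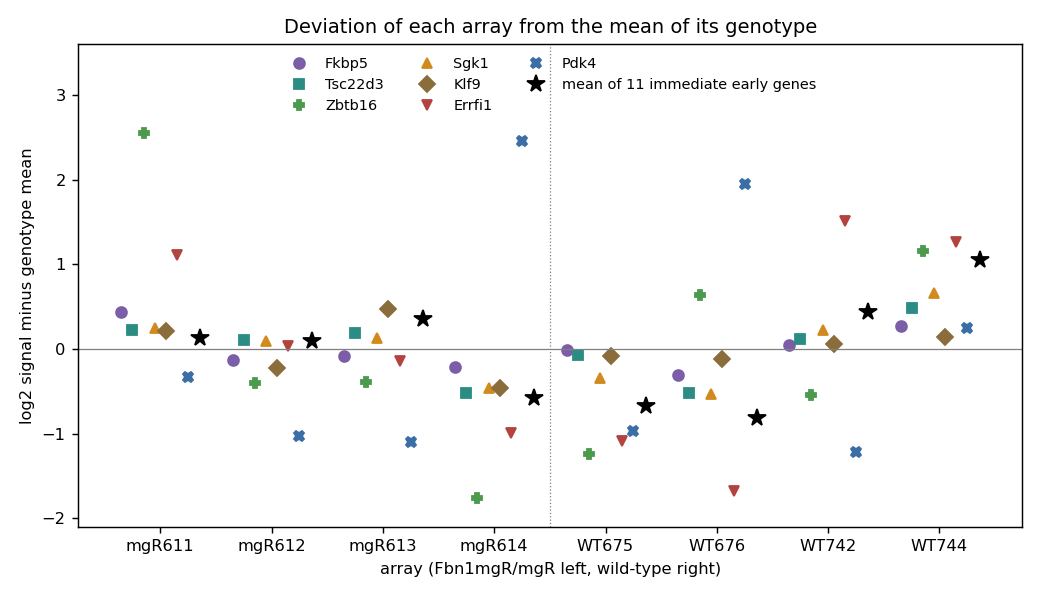
Deviation in log2 signal of each array from the mean of its genotype for the 7 targets and for the mean of 11 immediate early genes (stars), Fbn1mgR/mgR on the left and wild-type on the right; arrays have no order within a genotype. Fkbp5, Tsc22d3, Sgk1, Klf9, Errfi1 and the immediate early mean are below 0 on mgR614 and WT676 and above 0 on WT742 and WT744; Pdk4 is 2.46 on mgR614, 1.95 on WT676 and -1.22 on WT742, and Zbtb16 is 0.63 on WT676 and -0.55 on WT742.

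The genes most like the leading members in this array-to-array pattern were taken from 13217 named genes by the correlation of genotype-centred signals over the 8 arrays, as a description. For Nr3c1 they were Slc46a1 (r = 0.993), Mdfic (0.992) and Pdia3 (0.987). For Hsd11b1 they were Cdsn (0.978), Ncl (0.971) and Noa1 (0.963), and for Fkbp5 Hbq1a (0.968), Mir34b (0.967) and Htr1b (0.964). For Tsc22d3 they were Ptpn2 (0.995), Pbxip1 (0.989) and Rgs4 (0.985). Of these 12 only Rgs4, a regulator of G protein signalling, differed by genotype, falling by 1.45 in Fbn1mgR/mgR (limma adjusted p = 0.0329). That call was lost on leaving out any 1 array except WT676, with adjusted p from 0.0529 to 0.0896. With so many genes and 8 arrays, high correlations occur without any relation between the genes.

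The other genes of the pathway were read from 5 lists naming 82 genes, and only those that passed the filter on dim signals are counted. Of 6 steroid receptor and enzyme genes tested, 1 was called, against 0.464% of all clusters called lower: Pgr, the progesterone receptor gene, fell. Its signals were 5.41, 4.97, 4.93 and 4.93 in Fbn1mgR/mgR arrays and 5.79, 5.96, 6.14 and 6.02 in wild-type arrays, without overlap. The difference was -0.92 (SE 0.137, limma adjusted p = 0.0144), with adjusted p = 0.0503 without mgR613, 0.0525 without WT744 and 0.120 without both brown-fat-rich arrays. Nr3c2, the mineralocorticoid receptor gene, whose product also binds glucocorticoids, had signals of 5.88, 6.78, 6.39 and 5.84 in Fbn1mgR/mgR and 7.02, 7.30, 6.86 and 7.43 in wild-type arrays. Those values did not overlap either, but the difference of -0.93 was not called (limma adjusted p = 0.0963). It passed without mgR612 (-1.12, limma adjusted p = 0.0446; 0.0446 to 0.357 over all settings). The transporter genes Abcb1a (-0.92, limma adjusted p = 0.135) and Abcb1b (-0.51, limma adjusted p = 0.363), whose products export steroids, were not called, and as close relatives they may share probe signal.

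The machinery that holds and assists the receptor showed no call. Of 11 chaperone genes 0 were called by limma and 0 had an unadjusted p under 0.05, and differences ran both ways, 5 above 0 and 6 below. Hspa8 had 19.92 or 19.93 on all arrays, the ceiling of the values, where no change can show; without it the median of the other 10 was 0.013. Those with the smallest p were Fkbp4 (-0.27), Dnajb1 (-0.34), Stip1 (0.27) and Ptges3 (0.12), with adjusted p from 0.501 to 0.796. Of 10 coregulator genes 0 were called by limma, 3 were lower when p was not adjusted (6.68% of all clusters were) and the median was -0.29. Ncoa1 (-0.42), Nrip1 (-0.49), Crebbp (-0.34) and Ep300 (-0.39) led that list, with adjusted p from 0.242 to 0.407.

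Of 25 further genes known as glucocorticoid-induced, 2 rose and 2 fell (1.40% and 0.464% of all clusters), with a median of -0.28 (-0.22 over all 27 with a cluster). Cdkn1a, the cell cycle inhibitor p21, rose: its signals were 12.78, 11.59, 12.12 and 11.25 in Fbn1mgR/mgR arrays and 9.96, 10.12, 10.16 and 9.92 in wild-type arrays, all mutant arrays being higher. The difference was 1.90 (SE 0.296, limma adjusted p = 0.0181; 0.0605 without mgR613, 0.0623 without WT675 and 0.0638 without WT744). Anxa1, which encodes the anti-inflammatory protein annexin A1, rose by 0.89 (limma adjusted p = 0.0300), a call lost on leaving out any 1 array except mgR614, with adjusted p from 0.0543 to 0.0929, and after median centring (0.0516). Fbxo32, which encodes the ubiquitin ligase atrogin-1, fell by 0.92 (limma adjusted p = 0.0355), a call lost without any 1 array except mgR613, with adjusted p from 0.0716 to 0.116, without a filter (0.0579) and after median centring (0.0534). The clock gene Per2 fell by 1.51 (limma adjusted p = 0.0233; 0.0545 to 0.0621 without mgR612, mgR613, mgR614 or WT676 in turn). Per2 is also on the clock list, of which 1 of 13 tested genes rose and 5 fell (1.40% and 0.464% of all clusters), with a median of -1.32. There Arntl rose by 2.69 (limma adjusted p = 0.00350), Hlf fell by 1.97 (limma adjusted p = 0.0140; 0.0525 without WT744) and Tef fell by 1.61 (limma adjusted p = 0.0216). The Tef call was lost without mgR611, mgR614, WT675, WT676 or WT744 in turn, with adjusted p from 0.0505 to 0.0656. Whether clock phase has a part in the target values was not tested.

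Of 20 inflammatory genes known to be repressed by glucocorticoids, 13 passed the filter on dim signals. By limma, 4 of these rose while 0 fell, where 1.40% of all clusters rose and 0.464% fell. None of the 13 was lower before adjustment either, 0 with p under 0.05. Without the filter, 3 rose and 0 fell. A gene can pass that filter through the genotype where it is high, as Il6 did (5.73 in Fbn1mgR/mgR, 3.69 in wild-type), so counts over the 13 are no support. Over all 20 the median difference was 0.62, with 18 above 0 and 2 below. The 2 were Nos2 (-0.018) and Mmp9 (-0.145), and for Mmp9 every mutant array was lower. Both had dim signals, and these 3 genes were named after their values were seen. Ccl2, a monocyte chemoattractant, had signals of 8.13, 8.02, 8.29 and 9.75 in Fbn1mgR/mgR arrays and 6.02, 5.86, 6.27 and 6.32 in wild-type arrays. All mutant arrays were higher, mgR614 most of all, and the difference was 2.43 (SE 0.359, limma adjusted p = 0.0140; 0.0525 without WT675). The chemokine gene Ccl3 rose by 0.92 (limma adjusted p = 0.0104; 0.105 without both brown-fat-rich arrays). Mmp13, a collagenase gene, rose by 0.92 (limma adjusted p = 0.0247), a call lost without mgR613, mgR614, WT675, WT742 or WT744 in turn, with adjusted p from 0.0503 to 0.0681. Ccl7, another monocyte chemoattractant, rose by 2.11 (limma adjusted p = 0.0488), a call lost without any 1 array except mgR614, with adjusted p from 0.0640 to 0.137. The Ccl7 call was also lost without an intensity trend (0.0506), with robust eBayes (0.0519), without a filter (0.0685) and with the immediate early covariate (0.0745). Without both brown-fat-rich arrays, limma still called Cdkn1a (2.15, adjusted p = 0.0490), Ccl2 (1.94, adjusted p = 0.0144), Ccl7 (1.53, adjusted p = 0.0373) and Arntl (2.94, adjusted p = 0.0229), as well as Rgs4 (-1.48, adjusted p = 0.0490), but not Pgr, Per2, Anxa1, Fbxo32, Ccl3, Mmp13, Hlf or Tef (adjusted p from 0.0753 to 0.141). The differences of Pgr, Abcb1a, Fbxo32, Ccl3 and Mmp13 have the same size, although their signals on the arrays differ. The macrophage markers given beside Hsd11b1 differ between the genotypes in the same direction as these inflammatory genes, and their part was not tested.

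**Figure D5:**
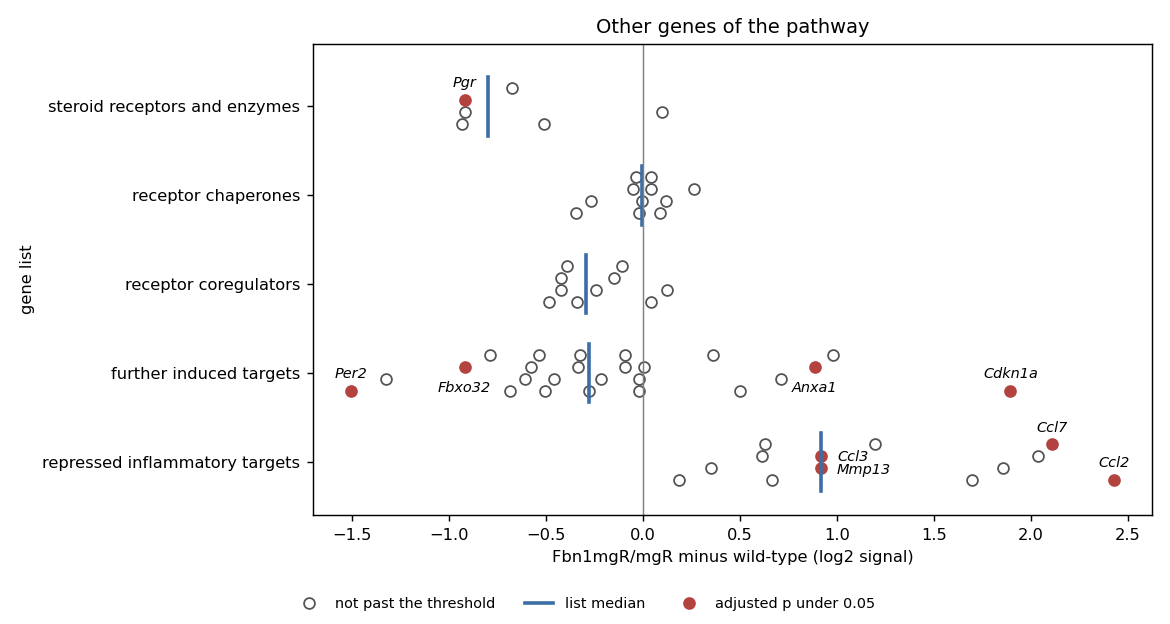
Difference in log2 signal, Fbn1mgR/mgR minus wild-type, of the tested genes of 5 pathway lists. Each circle is 1 gene, filled where the limma adjusted p was under 0.05. The vertical bars are medians over the tested genes only. For the repressed inflammatory genes that median is 0.92, where over all 20 genes it was 0.62. The called genes are Pgr, Per2, Fbxo32, Anxa1, Cdkn1a, Ccl3, Mmp13, Ccl7 and Ccl2, and genes that did not pass the filter on dim signals are not drawn.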

How the data were processed

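The values are log2 signals per transcript cluster on 8 Clariom D mouse arrays, normalized by the authors before they were deposited. Transcriptome Analysis Console is named, without a version, in the submitters' processing notes; how signals were normalized and probes summarised is not given in the sources used here. Precision is limited by the number of arrays (median standard error of a difference 0.15).

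Of 65956 clusters, 30604 carried 1 gene symbol, 2146 several and 33206 none, and 22951 matched RefSeq gene IDs (GRCm38.p6), which updated 827 symbols. Genotypes were taken from the labels. limma 3.58.1 in R 4.3.3 (lmFit, eBayes with an intensity trend) was run on 32957 clusters above the median mean signal, with Benjamini-Hochberg adjustment. Intervals are limma's at 95%. Dim signals were those at or below 4.11, the 95th percentile of 1225 olfactory receptor genes. Correlations were tested by exact permutation within genotypes, chosen after the data were seen. Python 3.11.15, pandas 2.3.3 and matplotlib 3.10.9 were used otherwise.

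The members and gene lists were chosen with earlier results of these data known. Named genes are the 9 members, up to 4 genes of each list with the smallest p, and the 3 genes most like each of Nr3c1, Hsd11b1, Fkbp5 and Tsc22d3. Alternatives were other variance priors, array weights, filters, normalizations, covariates, thresholds and each array left out. On data simulated for this comparison, with 32957 clusters tested, limma recovered 61% of the 100 clusters given a change of 1 log2 unit and 93% of the 100 given 2. All had the right sign, and 9 unchanged clusters were also called. The simulated noise was independent between clusters, so it held no shifts shared by genes on an array. The rates are averages over clusters and do not apply to the widely varying Zbtb16, Errfi1 and Pdk4.

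Of the marker lists whose calls are not given above, none of the tested adipocyte (12), T cell (9), endothelial (10) and fibroblast (8) markers was called by limma. Of these, 1, 2, 2 and 1 had an unadjusted p under 0.05, where 14.3% of all clusters did. Of 10 smooth muscle markers 0 were called by limma and 3 had an unadjusted p under 0.05. Of 12 striated muscle markers 1 was called lower (0.464% of all clusters were). Of 9 immediate early genes tested, 0 were called by limma and 0 had an unadjusted p under 0.05, and Fosb (1.11), Ier2 (0.64), Egr2 (0.52) and Jun (-1.03) had the smallest p.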

Additional observations from a re-analysis of the deposited data

Results flagged for a closer look

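Among 118 groups of 4 arrays examined, 10 held 1 array far from the other 3 of its genotype. The rule flags about 1 in 20 independent groups by chance, but these groups share arrays. Mdfic, Ncl and Ptpn2 were also picked because they follow a member from array to array. The count of 10 therefore cannot be set against that rate. On mgR614, Tsc22d3 was 5.97 against 6.60 to 6.72 on the other mutant arrays, Ccl2 was 9.75 against 8.02 to 8.29, Ccl7 was 8.73 against 6.83 to 6.86 and Ptpn2 was 7.29 against 7.60 to 7.63. The brown fat mean on mgR614 was 8.90 against 6.52 to 6.60. On mgR611, Pgr was 5.41 against 4.93 to 4.97 and Mdfic was 6.74 against 7.22 to 7.28. On WT676, Hsd11b1 was 8.03 against 7.53 to 7.60 on the other wild-type arrays and Ncl was 10.95 against 10.74 to 10.76. On WT744, Ep300 was 10.2 against 9.67 to 9.71.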

How the results depend on the processing

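None of the 9 members was called under any alternative at the 0.05 threshold, except that Fkbp5 was too dim to be tested above the upper quartile, and in the fits run 8 kept the sign of their difference. Pdk4 did not: it was 0.048 with brown fat markers as a covariate and -0.93 to 0.54 over the fits without 1 array. Without 1 array, 210 to 450 clusters were higher and 54 to 122 lower; steroid genes lower numbered 0 to 2, further induced genes higher 0 to 2 and lower 0 to 1, repressed genes higher 1 to 4 and clock genes lower 1 to 5. Without a filter, 99 clusters and 1 further induced gene were lower, and the repressed median was 0.62. Above the upper quartile of signal, 0 steroid genes were lower, 2 repressed genes were higher, and the medians were 1.26 for repressed and -1.55 for clock genes. Median centring left 1 further induced gene higher and 1 lower. Without both brown-fat-rich arrays, mgR614 and WT676, 115 clusters were higher and 53 lower, 0 steroid, 0 further induced and 0 clock genes were lower, 1 further induced and 2 repressed genes were higher, and the clock median was -1.07. At adjusted p under 0.1, 765 were higher and 362 lower, and under 0.01, 153 and 29. Fitting the variance prior on all clusters, added after the data were seen, gave 507 and 184.

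Among genes named for likeness, Slc46a1 was 0.013 with array weights, 0.0037 after quantile normalization, 0.0027 with the covariate, 0.017 without both arrays and -0.043 to 0.064 without 1 array. Cdsn was 0.0009 after quantile normalization, 0.013 with the covariate and -0.128 to 0.138 without 1 array, and Htr1b -0.19 to 0.48. Ptges3 was -0.037 without both arrays. The causes were not tested. Each member had 1 cluster, so averaging clusters changes nothing. No paired analysis was possible because the genotypes share no replicate numbers.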
